A study of Homo sapiens with 12 samples.

Results

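HEYA8 is a long-established line of human ovarian cancer cells, and the titles of its 12 RNA-seq libraries carry the number 6, 8 or 11. The 4 libraries with number 6 are described here against the 8 libraries with numbers 8 and 11, at matched dose, to show what differed between the cultures whatever the drug. Each number has 1 library at 0, 1, 5 and 10 µM colforsin daropate, given for 48 h in serum-containing medium. All 3 numbers share the line, medium, exposure time, RNA kit and ribosomal RNA depletion, and no group carries an engineered gene. Colforsin daropate is a water-soluble forskolin derivative, and forskolin activates adenylyl cyclase and raises cyclic AMP. What the number marks is not stated in the labels, so it is called the label number, and it may stand for cultures, times or handling. The 4 libraries of a number share whatever it marks, so the comparison sets 1 number against 2 others, and p-values measure only the spread between these libraries.

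Cells that run short of amino acids or accumulate misfolded protein phosphorylate the initiation factor eIF2. General translation is then lowered, while the transcription factor ATF4 is translated better and turns on amino acid transporters, biosynthetic enzymes and aminoacyl-tRNA synthetases. That programme is called the integrated stress response. Ribosome production, matrix secretion and the share of cells in mitosis are other features of a culture that can differ between dishes of 1 line before any drug is added.

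Expression is given as the authors' variance-stabilised value, called the level here. It is on a log2 scale for abundant genes and flattens towards a floor of 4.86, which a library with no read of a gene shows. A difference is the level in number 6 minus the mean level of 8 and 11 at the same dose, averaged over doses, with its standard error. A gene was called at a Benjamini-Hochberg adjusted p under 0.05 in limma with dose as a block, over 17767 genes tested.

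Reads on genes came to 23.9 to 34.8 megareads per library in number 6, with the lowest at 0 µM, and to 36.9 to 48.3 megareads in the other 8. Reads that matched no annotated feature were 40.5% to 41.4% of reads in number 6 and 36.2% to 40.04% in the others. Neither range overlaps, and their part in the differences below was not tested, although fits that take depth or this share into account are given where they end a result. The keratins KRT7, KRT8 and KRT18, the lineage factor PAX8 and the mesenchymal filament VIM were abundant in every library. EPCAM had at most 10.3 normalised counts and KRT19 at most 16.6. The ovarian markers WT1 and MSLN had 66.0 to 154 and 101 to 174 over all libraries. CDH1, MUC16, FOLR1 and MUC1 were not analysed here. Immune markers summed to 9.77 to 24.0 normalised counts in number 6 and 6.20 to 18.6 in the others over the 3 of 6 measured, and CD14 was at 0 in 7 libraries. Fewer cells of a type and less RNA per cell cannot be told apart in bulk RNA.

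Number 6 differed from both other numbers across much of the transcriptome. Of 17767 genes, 6970 (39.2%) were called, 3427 higher (19.3%) and 3543 lower (19.9%). In 2297 of the genes called higher (12.9% of all tested) the level in number 6 was above that of both 8 and 11 at every dose, and in 2347 of those called lower (13.2%) it was below both. Differences were mostly small: the median size was 0.15, and 203 genes were higher and 58 lower by at least 1. Numbers 8 and 11, compared in the same way in a model with all 3 numbers, gave 0 called genes (0.0%), with 873 (4.91%) at an unadjusted p under 0.05 in limma. Their median difference in size was 0.0625, and no gene reached 1. The difference changed with dose in a further test for a slope per dose step (0, 1, 5, 10 µM taken as equal steps), which called 919 falling slopes (5.17%) and 560 rising ones (3.15%). Of the 4644 genes outside both other numbers at every dose, 4280 had no such slope. Number 6 against 8 alone gave 1579 higher and 1539 lower calls, and with the no-feature share as a covariate 733 and 571 were left.

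The clearest gene was read in number 6 only. CADM2, a cell adhesion molecule of the immunoglobulin family best known from neurons (chromosome 3, 84958981 to 86074429, plus strand, GRCh38), had 281, 646, 690 and 716 reads in number 6 at 0, 1, 5 and 10 µM, recovered from the deposited values. In each of the 8 other libraries it had 0 reads. The level in number 6 ran from 8.95 to 9.87 against the floor of 4.86, a difference of 4.66 on the level scale. It passed the filter on low values only through number 6, and a fitted error would rest on a constant floor in the other group, so no test is given for it. Set against a floor of 3 reads over the 8 libraries, it was at least 2042-fold higher, with counting error only in that bound.

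PAX3, a transcription factor of neural crest and muscle precursors (chromosome 2, 222199888 to 222298996, minus strand), showed nearly the same picture. It had 60, 68, 63 and 63 reads in number 6 over the 4 doses and 1 read in all the other libraries together. After scaling for depth that was a ratio of 667, with a 95% counting interval of 119 to 26442. EPHA6, an ephrin receptor, had 35, 32, 24 and 37 reads in number 6 and 2 elsewhere, a ratio of 168 with an interval of 45.6 to 1402. With a minimum of 20 reads on the higher side, CADM2, PAX3 and EPHA6 were the genes found with 3 or fewer reads in 8 and 11, and no gene had 3 or fewer reads in number 6 alone. The 3 were picked out after their values were seen, and PAX3 and EPHA6, like CADM2, passed the filter on low values only through number 6. Their intervals hold counting error only, not the spread between libraries, and are not a test.

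Among the 14 largest higher genes that lay above both other numbers at every dose were cell surface and matrix proteins. ITGB8, the beta-8 integrin that frees latent TGF-beta, had levels of 10.3, 11.1, 11.4 and 11.9 in number 6 at rising dose. In number 8 they were 6.26, 7.71, 8.99 and 9.32, and in number 11 they were 6.6, 7.46, 8.96 and 9.35. Every library of number 6 was above every other library, although the level at 10 µM was above that at 0 µM in all 3 numbers. The difference was 3.09 ± 0.18 (adjusted p = 1.1e-07), and mean normalised counts were 2381 in number 6 and 296 in the others. LRRC32, which holds latent TGF-beta at the cell surface, was higher by 2.60 ± 0.20 (adjusted p = 7.29e-07), with levels of 8.16 to 9.74 in number 6 and 5.62 to 6.68 in the others.

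RBM44, an RNA-binding protein gene on chromosome 2, had levels of 8.91 to 9.47 in number 6 and 5.76 to 6.30 elsewhere, with mean counts of 538 and 19.9, a 27.1-fold ratio. The difference was 3.22 ± 0.12 (adjusted p = 1.74e-09). It overlaps LRRFIP1 on the same strand, which went the other way (difference −0.24). GBP2, an interferon-induced guanylate-binding protein, had levels of 9.88, 9.83, 9.15 and 9.82 in number 6 against 6.28 to 7.32 in the others, and was higher by 2.83 ± 0.17. SCN9A, a voltage-gated sodium channel subunit, was level in number 6 (8.45 to 8.70), while in 8 and 11 it went from 7.31 and 7.59 at 0 µM to 5.93 and 6.09 at 10 µM.

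ADAMTS5, a protease that cuts aggrecan, and C1S, a complement protease, had higher levels at 10 than at 0 µM in every number and lay a similar distance higher in number 6 at each dose. ADAMTS5 had levels of 8.72, 10.4, 11.4 and 11.8 in number 6 and 6.39, 7.89, 9.58 and 9.66 in number 8. Its difference was 2.20 ± 0.08 and that of C1S 1.96 ± 0.07. DKK1, a secreted inhibitor of WNT signalling, behaved otherwise, with 9.83, 9.37, 8.79 and 7.4 in number 6 against 6.4 to 7.22 in the others, so that the gap narrowed at 10 µM. C15orf62 widened, from 7.12 to 9.83 in number 6 over the doses and 6.17 to 6.87 elsewhere. IQCD and ENTPD3, an enzyme that cuts extracellular nucleotides, were higher by 2.03 ± 0.14 and 1.93 ± 0.16, and the mitotic kinesin KIF20A is described with the cell cycle.

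**Figure D1:**
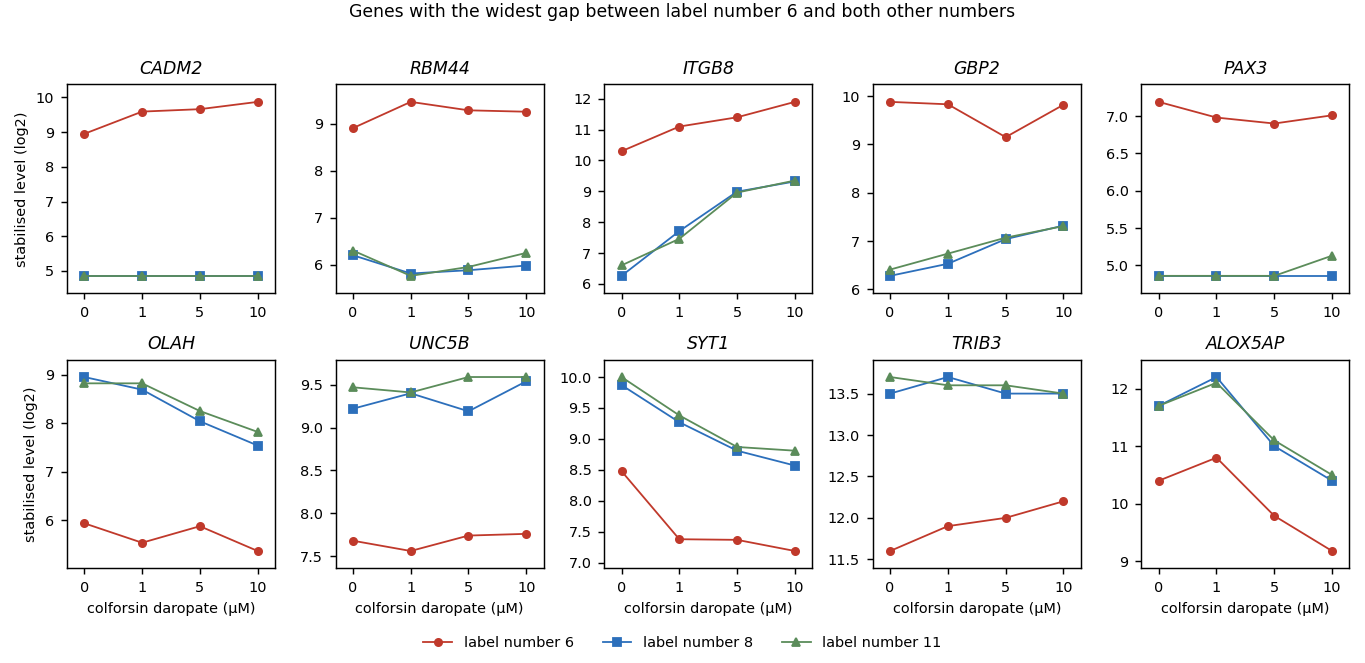
Stabilised level (log2 scale, y axis, its own range in each panel) against colforsin daropate dose (x axis, µM, evenly spaced) for the 5 genes with the widest gap above both other numbers and the 5 with the widest gap below them; each point is 1 library. Number 6 lies apart at every dose, as for CADM2 (8.95 to 9.87 against 4.86) and OLAH (5.37 to 5.94 against 7.54 to 8.95).

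OLAH, a thioesterase that releases fatty acids from fatty acid synthase, was the named gene with the largest lower difference, −2.68 ± 0.14 (adjusted p = 2.91e-08). Its levels were 5.94, 5.54, 5.88 and 5.37 in number 6, 8.95, 8.69, 8.04 and 7.54 in number 8, and 8.82, 8.82, 8.25 and 7.82 in number 11. Every library of number 6 was lower than every other library, and the mean count was 27.8 times higher in 8 and 11. UNC5B, a netrin receptor, kept a steady gap, with 7.56 to 7.76 in number 6 and 9.19 to 9.59 elsewhere. ALOX5AP, the 5-lipoxygenase activating protein of leukotriene synthesis, had its highest level at 1 µM and its lowest at 10 µM in all 3 numbers and was lower by 1.30 ± 0.04 on the level scale, with 10.4, 10.8, 9.79 and 9.18 in number 6 and 11.7, 12.2, 11 and 10.4 in number 8.

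Other low genes included membrane and secreted proteins. DYSF, a membrane repair protein, had 9.39 at 0 µM in number 6 and 12.1 in both others, and 8.45 against 10.1 and 9.91 at 10 µM. SYT1, the calcium sensor of synaptic vesicles, had 8.48, 7.38, 7.37 and 7.19 in number 6 and 8.57 to 10.0 in the others. LAMP3, a lysosomal membrane protein also induced by interferon, was 6.61 in number 6 and 9.54 and 9.75 in the others at 0 µM, and 8.19 against 8.84 and 9.20 at 10 µM. FGFBP1, which carries fibroblast growth factors, was higher at 10 than at 0 µM in every number and lay 1.52 ± 0.10 lower on the level scale in number 6. ESRP1, a splicing regulator of epithelial cells, UPP1, which degrades uridine, LURAP1L and SPX, the peptide spexin, were lower by 1.42 to 1.49. RN7SL116P, a copy of the 7SL RNA, had a level above the floor in number 6 at 10 µM only and 5.72 to 7.06 elsewhere, but reads of such copies cannot be assigned safely.

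The integrated stress response had the highest share of genes called lower in number 6 among the lists tested. Of its 38 genes tested, 33 were called lower and none higher, against 19.9% and 19.3% of all genes, and 30 were below both other numbers at every dose. The median difference was −0.68, against −0.0025 over all genes tested, and it was −0.75, −0.73, −0.50 and −0.73 at 0, 1, 5 and 10 µM. For 8 of the 38 the difference had a called rising slope over dose, against 3.15% of all genes, TRIB3, DDIT3 and WARS1 among them. The same genes differed between 8 and 11 by a median of −0.025, with a range of −0.20 to 0.11. The count was 26 with the no-feature share as a covariate, and 31 to 34 leaving out any 1 library. It was 32 in a voom fit of the recovered reads, both at full depth and after thinning all libraries to 23.9 megareads.

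TRIB3, a pseudokinase that restrains ATF4 (chromosome 20, 362835 to 397559, plus strand), had levels of 11.6, 11.9, 12 and 12.2 in number 6 at rising dose. In number 8 they were 13.5, 13.7, 13.5 and 13.5, and in number 11 13.7, 13.6, 13.6 and 13.5. Number 6 was low in each library and the groups did not overlap. The difference was −1.65 ± 0.08 (adjusted p = 3.4e-08), and the mean count was 3.14 times higher in 8 and 11. DDIT3, the stress transcription factor CHOP (chromosome 12, minus strand), had 10.3, 10.3, 9.99 and 10.4 in number 6 and 11.4 to 12.3 in the others, again with no overlap, and differed by −1.55 ± 0.10. It overlaps MARS1 on the other strand, which was lower by 0.80, and the strand setting of the counting was not given in the sources used here.

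Enzymes and transporters of amino acid supply followed. ASNS, asparagine synthetase, had 7.41, 7.27, 7.09 and 7.25 in number 6, 8.52, 8.55, 8.56 and 8.57 in number 8 and 8.61, 8.70, 8.19 and 8.25 in number 11. The difference was −1.24 ± 0.09 (adjusted p = 3.6e-07), with mean counts of 98.3 and 299.9, and another annotated gene overlaps it on the same strand, so its reads may be divided. PSAT1 and PHGDH, of serine synthesis, differed by −1.08 ± 0.08 and −0.68 ± 0.08, and the mitochondrial folate enzymes MTHFD2 and SHMT2 by −0.86 ± 0.05 and −0.66 ± 0.05. SLC7A5 and SLC1A5, which import neutral amino acids, differed by −0.56 ± 0.06 and −0.55 ± 0.06. ATF4 itself, which is controlled mainly through its translation, had 14.2, 14.4, 14.4 and 14.5 in number 6 and 14.7 to 14.9 elsewhere (difference −0.44 ± 0.05). Among members not called were VLDLR (−0.14 ± 0.10) and CTH (−0.10 ± 0.07), and ATF5 was at 0.02 ± 0.07. SESN2, a leucine sensor that ATF4 induces, was at −1.14 ± 0.08.

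**Figure D2:**
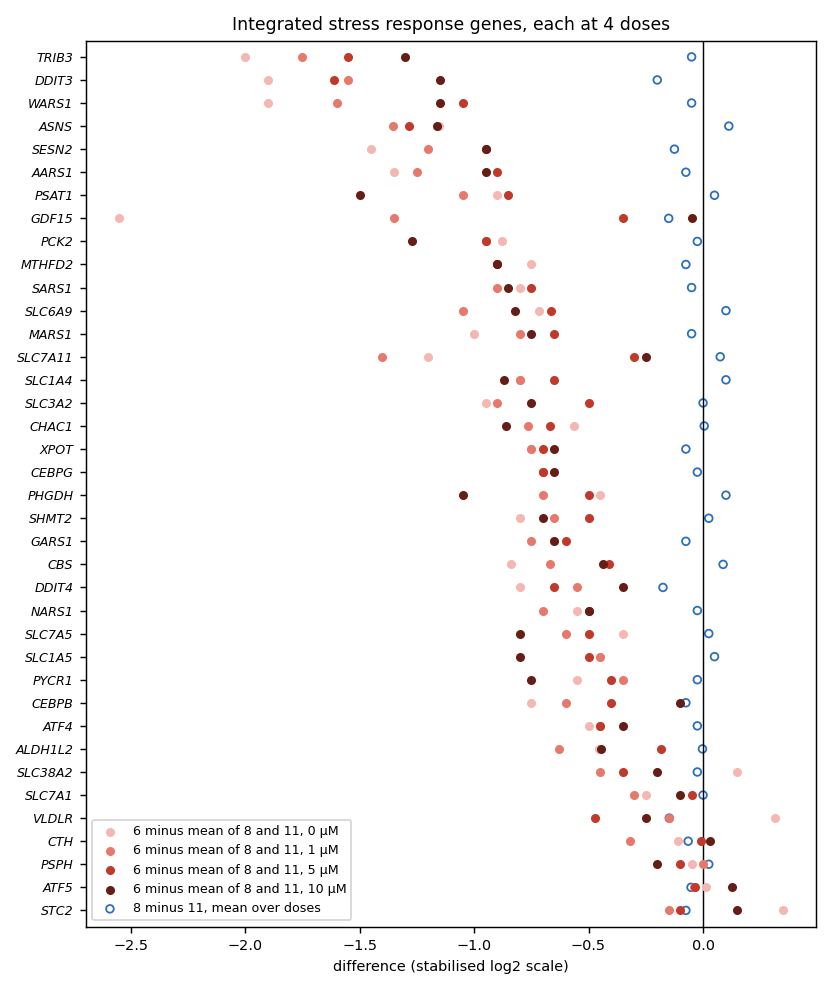
Difference of number 6 from the mean of 8 and 11 (x axis, stabilised log2 scale) for the 38 integrated stress response genes tested (y axis), with filled points for the 4 doses and open circles for 8 minus 11 averaged over doses. Filled points lie left of 0 at every dose for 32 genes, while the open circles stay between −0.20 and 0.11.

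ATF4 and C/EBP partners bind a composite element whose core can be written TGATGNAA. It was looked for on both strands in the 250 bases before each RefSeq start (GRCh38.p14), since the genes moved together. Of the 38 genes, 33 had a promoter entry, and AARS1, ASNS, CEBPG, CHAC1, GARS1 and SLC1A5 held the letters, in 6 of 52 starts (11.5%) against 3.14% of 35116 starts in all. A match is a description and not a binding site. For 3 of these genes, 30 bases are printed 5′ to 3′ on the strand of the gene, with the match in capitals (reverse complement in CHAC1 and GARS1).
ASNS: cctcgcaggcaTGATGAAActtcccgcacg
CHAC1: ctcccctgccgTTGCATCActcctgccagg
GARS1: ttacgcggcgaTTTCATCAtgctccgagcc
They lie at chr7:97872458-97872487 (minus strand), chr15:40953251-40953280 (plus) and chr7:30594834-30594863 (plus), and the match begins 68, 209 and 33 bases before the start. ASNS is described above. CHAC1, which degrades glutathione, was at −0.72 ± 0.06, with 8.32 to 8.65 in number 6 and 9.04 to 9.48 elsewhere, and GARS1, the glycyl-tRNA synthetase, at −0.66 ± 0.05, with 13.5 to 13.7 against 14.1 to 14.4.

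Aminoacyl-tRNA synthetases load amino acids onto tRNAs, and many of the cytosolic ones are ATF4 targets. Of 20 tested, 15 were called lower, against 19.9% of all genes, and none higher. The median difference was −0.48, and it was −0.50, −0.53, −0.48 and −0.53 over the doses. This list was added after values were seen, and some of its members are on the list above. WARS1 had 11.9, 12.3, 12.6 and 12.4 in number 6 and 13.5 to 13.9 in the others, a difference of −1.43 ± 0.10. AARS1 had 12.9 to 13.1 against 14 to 14.3 (−1.11 ± 0.07) and SARS1 13.1 to 13.4 against 13.9 to 14.2 (−0.83 ± 0.04). KARS1 (−0.10 ± 0.05) and QARS1 (0.08 ± 0.05) were not called.

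Genes for making ribosomes were also lower, by less. In the ribosome biogenesis list, 34 of 40 were called lower, against 19.9% of all genes, and none higher. Of the 34, 25 were below both numbers at every dose, and the list median was −0.30. RRP9, a component of small nucleolar particles, had 10.8, 10.9, 10.8 and 10.5 in number 6 and 11.2 to 11.6 elsewhere (−0.58 ± 0.06), and BYSL, needed for the small subunit, had 9.65 to 9.85 against 10.2 to 10.4 (−0.53 ± 0.05). With the no-feature share as a covariate the count was 13. Of 77 ribosomal protein genes, 60 were called lower and none higher, with a median of −0.24 and 36 below both at every dose. RPL26 had 12.3, 12.1, 11.7 and 11.7 in number 6 and 12 to 13.1 in the others (−0.53 ± 0.07), and RPS18 differed by −0.45 ± 0.06. The ribosomal protein count rests on the dose term and on number 11: it was 2 with no dose term, 23 against number 8 alone, 56 against number 11 alone and 0 with the covariate. GAS5 and ZFAS1, spliced host transcripts of small nucleolar RNAs, were lower by 0.65 ± 0.06 and 1.11 ± 0.06 on the level scale.

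**Figure D3:**
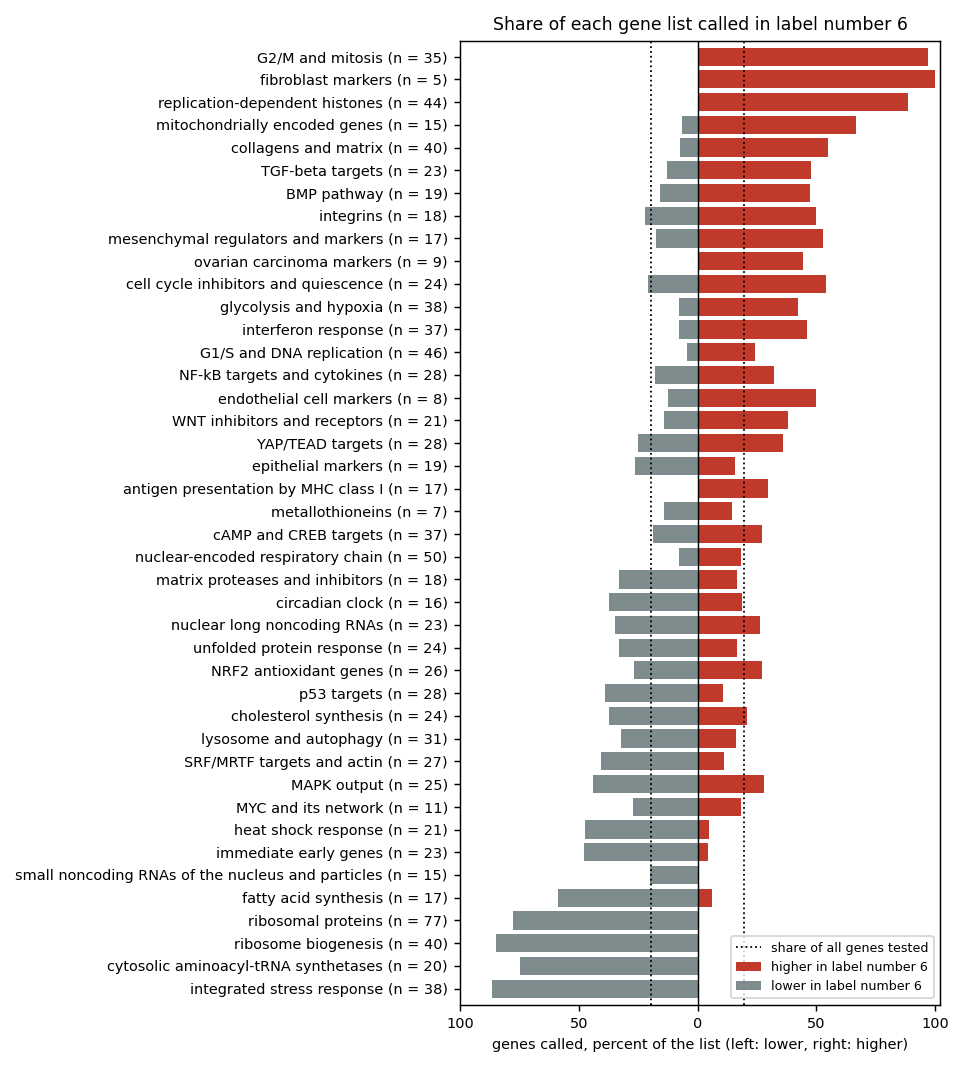
Percent of the genes of each list that limma called higher (right, red) or lower (left, grey) in number 6, for lists with at least 5 genes tested (y axis, number tested in brackets), sorted by median difference; dotted lines mark the shares over all genes (19.3% and 19.9%). The integrated stress response, tRNA synthetase and ribosome lists extend to the left, and the mitosis, histone, fibroblast and matrix lists to the right. The fibroblast markers PDGFRA and PDGFRB passed the filter on low values mainly through number 6.

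On the higher side were extracellular matrix genes. Of 40 collagen and matrix genes tested, 22 were called higher and 3 lower, against 19.3% and 19.9% of all genes. Of the 22, 20 were above both numbers at every dose, and the list median was 0.34. The higher count was 10 with no dose term and 14 with the no-feature share as a covariate. COL1A1, a chain of type I collagen, had 7.31, 8.69, 9.65 and 10.4 in number 6, 5.83, 7.04, 7.59 and 8.37 in number 8 and 6.24, 6.87, 7.63 and 8.40 in number 11. It was higher at each dose than at the one before in each number, and was 1.77 ± 0.12 higher in 6 (adjusted p = 2.24e-07), with mean counts of 611 and 126. COL7A1, the anchoring fibril collagen, was at 9.68 in number 6 and 8.94 and 8.98 in the others at 0 µM, and at 11.9 against 9.44 and 9.02 at 10 µM. THBS1, a matrix glycoprotein, went the other way, from 12 against 8.99 and 9.07 at 0 µM to 10.1 against 9.41 and 9.21 at 10 µM. COL6A3 (0.28 ± 0.13) and COL4A6 (0.25 ± 0.17) were not called. All 5 fibroblast markers tested, of 10 listed, were called higher, against 19.3% of all genes. The count was 4 with no filter on low values and 3 with a stricter one. PDGFRB had 23.8 to 50.1 normalised counts in number 6 and 4.78 to 14.4 in the others, and PDGFRA had 16.3 to 30.6 and 8.46 to 15.7. Both passed the filter mainly through number 6, so the count of 5 is not a result about the list. FAP, a stromal protease, had levels of 8.35 to 9.64 against 7.48 to 8.34 (1.23 ± 0.09), and FBLN1 had 9.25 to 9.59 against 8.27 to 8.91 (0.84 ± 0.06). Across the fibroblast markers COL1A1, PDGFRA and PDGFRB, summed counts were 184 to 1315 in number 6 and 42.5 to 295.7 in the others, the defining markers DCN and LUM were not analysed here, and a part of other cells was not tested.

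Receptors and signals of the TGF-beta and BMP families differed beside the matrix. SMAD9, a receptor-regulated SMAD of BMP signalling, had 9.56, 9.80, 10.0 and 10.0 in number 6 and 7.70 to 8.41 in the others, with no overlap (1.78 ± 0.09, adjusted p = 2.03e-08). ID1 and ID3, direct BMP targets that inhibit differentiation factors, were higher by 1.05 ± 0.08 and 1.09 ± 0.07, whereas the ligand BMP2 was lower, at 8.27 against 9.67 and 9.91 at 0 µM and 9.21 against 9.34 and 9.56 at 10 µM. Over all genes 19.3% were called higher and 19.9% lower, and these shares stand beside the list counts that follow. The BMP list, added after values were seen, had 9 of 19 called higher and 3 lower. Of 23 TGF-beta targets, 11 were higher and 3 lower, among them TGFBI, a secreted adhesion protein, with 13.6, 14.2, 14.7 and 15.1 in number 6 against 12.4 to 14.1 (1.03 ± 0.06). Among 18 integrins, 9 were higher, ITGA11, a collagen receptor, by 1.73 ± 0.09, and 4 lower, ITGB3 by 0.59 ± 0.12 and ITGA3 by 0.49 ± 0.06 on the level scale. In the mesenchymal list 9 of 17 were higher and 3 lower, with VIM at 0.56 ± 0.09 and CD44 at 0.55 ± 0.07. Of 19 epithelial markers, 3 were higher and 5 lower, near the background, with KRT7 at 0.83 ± 0.09 and OCLN, of tight junctions, at −0.53 ± 0.07. In the WNT list, like that of integrins added after values were seen, 8 of 21 were higher and 3 lower, with LGR5 and LGR4, receptors for R-spondin, at 1.09 ± 0.19 and 0.97 ± 0.08.

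Of 28 YAP/TEAD targets, 10 were called higher and 7 lower, against 19.3% and 19.9% of all genes. IGFBP3 and F3 (tissue factor) were at 1.35 ± 0.09 and 1.25 ± 0.15, and CCN1 at −0.81 ± 0.08. In the actin list 3 of 27 were higher and 11 lower, with the tropomyosins TPM1 and TPM2 at 0.96 ± 0.08 and 0.92 ± 0.16 and LIMA1, which crosslinks actin, at −0.81 ± 0.08. Matrix proteases and their inhibitors had 3 of 18 higher, near the 19.3% of all genes, and 6 lower, against 19.9%. MMP9 was at 0.92 ± 0.12 and its inhibitor family members TIMP4 and TIMP1 at −1.26 ± 0.11 and −0.73 ± 0.10. TIMP4 had 7.28 to 8.02 in number 6 and 8.61 to 9.09 in the others, with no overlap. Of 8 endothelial markers tested, 4 were higher, 1 lower and 3 not called, with a median of 0.12. The defining markers CDH5, PECAM1, VWF and KDR summed to 4144 to 8904 normalised counts in number 6 and 1898 to 4701 in the others, nearly all of it CDH5, and a part of other cells was not tested. CDH5 had 3944 to 8519 normalised counts in number 6 and 1685 to 4539 in the others, and PECAM1 had 48.9 to 112 and 6.98 to 35.5.

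Interferon-induced genes were mixed. Of 37 tested, 17 were higher, 10 of them above both numbers at every dose, and 3 lower, where 19.3% of all genes were higher and 19.9% lower. IFI44 had 8.82, 8.19, 8.18 and 7.50 in number 6 and 7.78, 7.35, 6.87 and 6.87 in number 8 (0.96 ± 0.09), and IFI44L was at 0.77 ± 0.12, but LAMP3 was at −1.83 ± 0.24. The higher count depended on the libraries compared, with 9 against number 8 alone and 8 against number 11 alone. It was 6 with the no-feature share as a covariate. In MHC class I presentation 5 of 17 were higher and none lower, with B2M, the class I light chain, at 0.31 ± 0.06. Among NF-kB targets and cytokines 9 of 28 were higher and 5 lower, the lower count near the share of all genes. BIRC3, an inhibitor of apoptosis, had 9.70 to 10.4 in number 6 and 8.26 to 9.58 elsewhere (1.29 ± 0.10). PTGS2, cyclooxygenase 2, went from 6.75 against 6.64 and 6.64 at 0 µM to 9.21 against 7.13 and 7.04 at 10 µM, while TNFSF15 did the reverse, from 6.82 against 9.80 and 9.92 to 6.62 against 6.62 and 6.66.

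Transcripts of the mitochondrial genome were higher in 10 of 15 and lower in 1, against 19.3% and 19.9% of all genes, with a median of 0.35. MT-CYB, of respiratory complex III, had 11.4, 11.1, 11.4 and 11.1 in number 6 and 10.0 to 10.7 in the others, with no overlap (0.84 ± 0.09). MT-ND5 and MT-ND6, of complex I, were at 0.74 ± 0.13 and 0.68 ± 0.12, and the ribosomal RNA MT-RNR1 at −0.36 ± 0.16 (adjusted p = 0.0965, limma). Nuclear genes of the same complexes did not share this: of 50 in a list added after values were seen, 9 were higher and 4 lower, with a median of 0.005. Their higher count was near the share of all genes, and NDUFA1 was at 0.41 ± 0.06. The count of mitochondrially encoded genes was 4 with the no-feature share as a covariate.

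Metabolic lists differed in direction, where 19.3% of all genes were higher and 19.9% lower. In glycolysis and hypoxia 16 of 38 were higher and 3 lower, 11 had a falling slope, and the median was 0.53, 0.35, −0.07 and 0.08 over the doses. Members higher at each dose were the hypoxia-induced carbonic anhydrase CA12 at 9.22, 9.35, 9.41 and 10.4 in number 6 against 7.78 to 8.83 (1.37 ± 0.11), and PFKFB3, which makes an activator of glycolysis, at 1.11 ± 0.08. NDRG1 (0.35 ± 0.17) was not called. In fatty acid synthesis 1 of 17 was higher and 10 lower. SCD, the stearoyl-CoA desaturase, was 12.6 against 12.7 and 12.5 at 0 µM and 10.4 against 11.3 and 11.5 at 10 µM, and ACSL3, which activates fatty acids, had 12.4 to 12.8 against 12.8 to 13.3 (−0.44 ± 0.05). Cholesterol synthesis had 5 of 24 higher, near the share of all genes, and 9 lower, with MSMO1 at −0.54 ± 0.06. The NRF2 list was even, 7 higher and 7 lower of 26: ABCC3, an efflux pump, was at 0.86 ± 0.09, and the cystine importer SLC7A11, also an ATF4 target, had 11.9 against 13 and 13.2 at 0 µM and 14.8 against 15.1 and 15 at 10 µM.

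Other stress lists had more genes lower than higher, where the shares over all genes were 19.9% lower and 19.3% higher. The unfolded protein response and lysosome counts were the nearest to these shares. Of 28 p53 targets, 11 were lower and 3 higher, with SESN2, also named above as induced by ATF4, at −1.14 ± 0.08, GADD45A at −0.75 ± 0.06 and CDKN1A at −0.40 ± 0.10. The median went from −0.25 at 0 µM to −0.05 at 10 µM, and 6 genes had a rising slope. Heat shock genes had 10 of 21 lower and 1 higher, with DNAJB1, a co-chaperone of HSP70, at −0.36 ± 0.05. The unfolded protein response had 8 of 24 lower and 4 higher, with the sensor ERN1 at −0.83 ± 0.13 and its target XBP1 at −0.44 ± 0.05. Lysosome and autophagy genes had 10 of 31 lower and 5 higher, with the protease CTSL at −0.79 ± 0.06, but 11 had a rising slope and the median went from −0.30 at 0 µM to 0.05 at 10 µM.

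MYC, the growth-promoting transcription factor named in the title of the series (chromosome 8, plus strand), was slightly lower in number 6. Its levels were 12.6, 12.3, 12 and 11.6 in number 6, 12.9, 12.6, 12.3 and 12.3 in number 8 and 13, 12.5, 12.3 and 12.2 in number 11. Number 6 was the lowest library at every dose, and the ranges over doses overlapped because MYC was lower at 10 than at 0 µM in each number. The difference was −0.39 ± 0.06 (adjusted p = 0.000261, limma), with mean counts of 4449 and 5764, and adjusted p = 0.159 without the dose term and 0.0582 with the no-feature share as a covariate. In its network the counts were near the shares of all genes (19.3% and 19.9%): 2 of 11 were higher, MLXIP (0.48 ± 0.06) and MXD4 (0.37 ± 0.06), and 3 lower, MYC, MYCL (−1.17 ± 0.17) and the antagonist MXD1 (−0.89 ± 0.07). The binding partner MAX (−0.13 ± 0.05) and MXI1 (0.13 ± 0.07) were not called, and MNT, MGA, MLX and MXD3 lay between −0.13 and 0.08.

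Signalling outputs were also compared, where 19.3% of all genes were higher and 19.9% lower. Of 23 immediate early genes 11 were lower and 1 higher, but the lower count was 2 with no dose term, 3 with the no-feature share as a covariate and 7 against number 11 alone. EGR1 had 9.50, 8.88, 7.73 and 8.43 in number 6 and 9.93, 9.28, 8.78 and 8.80 in number 8 (−0.57 ± 0.10). Among 25 MAPK output genes 7 were higher and 11 lower, with the ligands AREG and HBEGF at −1.05 ± 0.09 and −0.77 ± 0.06, the phosphatase DUSP5 at −0.80 ± 0.07 and SPRY1 at 0.75 ± 0.09. In the cAMP and CREB list 10 of 37 were higher and 7 lower, near the background. PDE7B and PDE3A, phosphodiesterases that degrade cAMP, were at 1.22 ± 0.13 and 0.86 ± 0.17, and PDE3A was level at 0 µM (5.53 against 5.53 and 5.40) and apart at 10 µM (8.86 against 7.38 and 7.73).

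Cell cycle genes formed the main group whose difference changed with dose. Of 35 G2/M and mitosis genes, 34 were called higher, against 19.3% of all genes, and none lower, but only 9 were above both numbers at every dose. Their median difference was 2.27 at 0 µM, 1.32 at 1 µM, 0.90 at 5 µM and 0.00 at 10 µM, and all 35 had a called falling slope, against 5.17% of all genes. KIF20A, which is needed for cytokinesis, had 11.2, 11.3, 10.7 and 9.30 in number 6, 7.73, 9.07, 9.22 and 9.17 in number 8 and 7.4, 8.65, 8.79 and 8.84 in number 11. It was far higher in number 6 at 0 µM and level with the others at 10 µM, and in 8 and 11 the lowest library was the one at 0 µM. Its slope was −1.08 per dose step (adjusted p = 6.78e-06, limma). HMMR went from 11.4 against 8.24 and 7.93 to 9.47 against 9.26 and 9.12, and MKI67, a proliferation marker, from 12 against 9.63 and 9.26 to 9.77 against 9.70 and 9.28.

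Replication-dependent histones, made during S phase, showed the same course. Of 44, 39 were called higher and none lower, 41 had a falling slope, and the median difference was 1.70, 1.00, 0.63 and −0.14 over the doses. H2BC3 had 9.36, 9.31, 8.69 and 7.16 in number 6, 6.51, 7.53, 7.90 and 7.65 in number 8 and 6.0, 7.30, 7.45 and 7.47 in number 11, and so was lower than both at 10 µM. H3C8 went from 11.1 against 8.69 and 8.25 to 8.70 against 8.99 and 8.62. Histone genes are near-identical copies, and reads may be divided among them. In G1/S and DNA replication 11 of 46 were higher, near the 19.3% of all genes, and 2 were lower. A falling slope was called for 29, against 5.17% of all genes, and the median went from 0.54 at 0 µM to −0.28 at 10 µM. RRM2, a subunit of ribonucleotide reductase, went from 12.5 against 10.8 and 10.5 to 10.2 against 10.9 and 10.6.

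**Figure D4:**
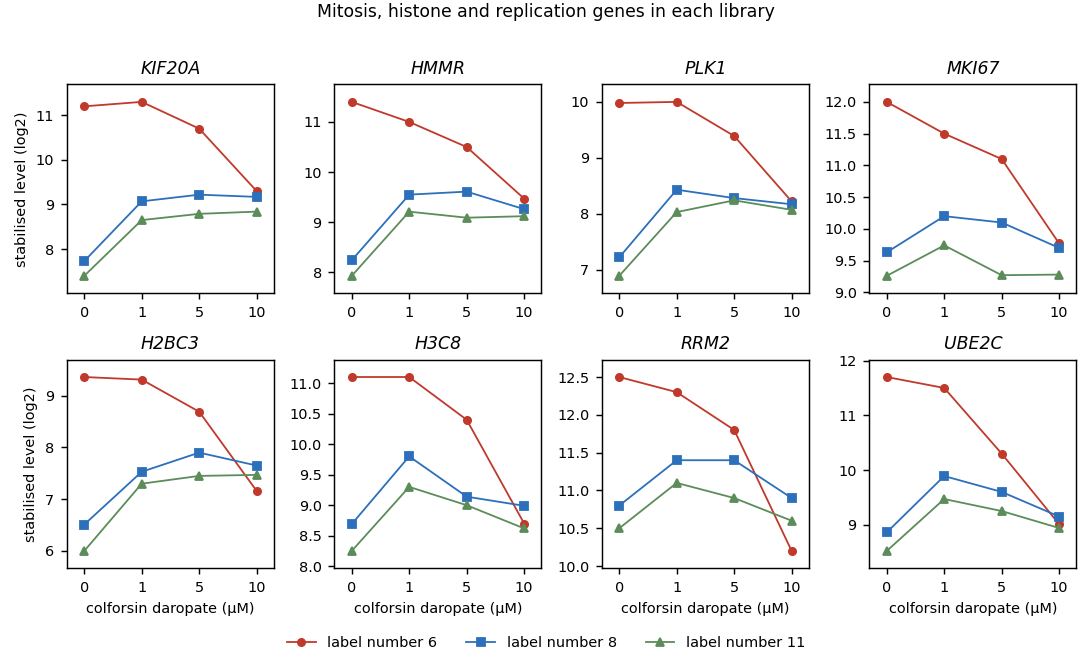
Stabilised level (log2 scale, y axis, its own range in each panel) against colforsin daropate dose (x axis, µM, evenly spaced) for 8 mitosis, histone and replication genes; each point is 1 library. Number 6 is far above both other numbers at 0 µM (KIF20A 11.2 against 7.73 and 7.4) and near or below them at 10 µM (KIF20A 9.30 against 9.17 and 8.84, RRM2 10.2 against 10.9 and 10.6).

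These counts depend on a few libraries. Against number 8 alone 1 of the G2/M genes and 5 of the histones were called, against number 11 alone 23 and 12, and with the no-feature share as a covariate 0 and 1. Without the 0 µM library of number 6, the shallowest of all, 32 G2/M genes and 23 histones were called higher, but falling slopes over all genes dropped from 919 to 114 and rising ones from 560 to 34. Leaving out the 10 µM library of number 6 left 436 and 243, the 0 µM library of number 11 599 and 256, and the 0 µM library of number 8 660 and 351. Histones numbered 22 without the 1 µM library of number 6.

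The promoters of these genes hold known cell cycle letters. In the 250 bases before the RefSeq start, on either strand, TTTGAA (the core of the CHR element of late cell cycle genes) was found in 19 of 39 starts of G2/M genes (48.7%) against 13.3% of all 35116 starts, and CCAAT in 30 of 39 (76.9%) against 32.0%. For the histones, CCAAT was found in 35 of 41 starts (85.4%) and the octamer ATTTGCAT in 16 of 41 (39.0%), against 32.0% and 1.63%. Promoter entries existed for 29 of 35 and 39 of 44 genes, and TTTGAA was not searched for in the histone promoters. No printed match overlaps another. The sequences below show matches in capitals, as 30 bases for mitotic genes and as the 130 bases before the start for histone genes, on the strand of the gene.
CCNB2: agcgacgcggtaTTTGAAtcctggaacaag
PLK1: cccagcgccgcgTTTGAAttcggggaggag
CDC20: cgacggttggatTTTGAAggagCCAATagg
H2BC3: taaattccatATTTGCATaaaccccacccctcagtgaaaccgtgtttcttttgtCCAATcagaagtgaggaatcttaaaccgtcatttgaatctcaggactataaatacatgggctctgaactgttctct
H2BC11: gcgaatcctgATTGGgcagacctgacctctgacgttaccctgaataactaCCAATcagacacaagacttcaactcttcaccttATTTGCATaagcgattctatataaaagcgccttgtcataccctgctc
They lie at chr15:59105105-59105134 (plus strand), chr16:23678848-23678877 (plus), chr1:43358904-43358933 (plus), chr6:26043714-26043843 (minus) and chr6:27132796-27132925 (minus) in GRCh38.p14. CCNB2, cyclin B2, was at 10.6 in number 6 against 8.0 and 7.90 at 0 µM and 8.55 against 8.54 and 8.43 at 10 µM, and PLK1, a mitotic kinase, at 9.98 against 7.22 and 6.89 and 8.22 against 8.17 and 8.07. CDC20, which activates the anaphase-promoting complex, was at 11.4 against 9.33 and 8.94 and 9.46 against 9.62 and 9.35. H2BC11 was at 11.7 against 9.75 and 9.53 and 9.37 against 10.2 and 9.86.

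**Figure D5:**
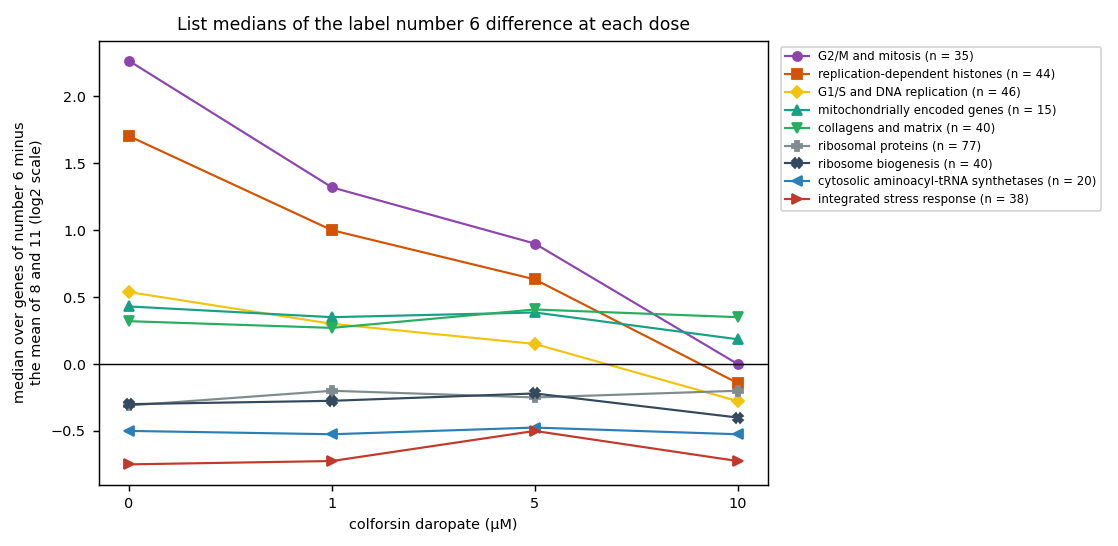
Median over the genes of a list of number 6 minus the mean of 8 and 11 (y axis, stabilised log2 scale) at each dose (x axis, µM, evenly spaced), with the number of genes tested in the key. The mitosis, histone and G1/S lines descend (2.27 to 0.00 for mitosis), whereas the integrated stress response stays between −0.75 and −0.50 and the matrix list between 0.27 and 0.41.

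Cell cycle inhibitors did not follow that course: 13 of 24 were higher and 5 lower, against 19.3% and 19.9% of all genes, with a median of 0.21. CDKN1C, an inhibitor of cyclin-dependent kinases, had 8.99, 10.2, 10.9 and 11.3 in number 6 and 8.15, 8.87, 9.85 and 10.3 in number 8 (1.02 ± 0.07), and FOXO1 was at 0.73 ± 0.09. Other genes with large falling slopes were UBE2C, a ubiquitin-conjugating enzyme of mitosis, H3C12 and PAEP, glycodelin, which was 12.8 against 10.1 and 10.2 at 0 µM and 9.06 against 9.10 and 9.31 at 10 µM. Rising slopes were led by TNFSF15, GDF15, a stress-induced cytokine that was 10.2 against 12.6 and 12.9 at 0 µM and 11.2 against 11.2 and 11.3 at 10 µM, and RPLP0P2, a pseudogene whose reads may belong to its parent.

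Position in the genome was examined last. Median differences of the autosomes lay between −0.05 (chromosome 19) and 0.07 (chromosome 13), and that of the mitochondrial genome was 0.28 over 25 genes. At KCNQ1OT1, an imprinted antisense transcript on chromosome 11 (2608328 to 2699994, minus strand), the level was 10.4, 10.4, 11.7 and 12.3 in number 6 and 8.54 to 10.4 in the others (1.79 ± 0.07). Its neighbour CDKN1C was higher by 1.02, PHLDA2 was at −0.66 ± 0.09 and NAP1L4 at −0.03 ± 0.05. On chromosome 17 DDX52, an RNA helicase gene (37609739 to 37643464, minus strand), had 13.1, 13.6, 13.7 and 14.2 in number 6 and 11.1 to 12.3 in the others, with no overlap (1.84 ± 0.07, mean counts 12965 and 3623). An antisense gene that overlaps it, ENSG00000277688, was at 1.85 ± 0.07, whereas SYNRG (0.04 ± 0.05) and TADA2A (0.07 ± 0.06), within 300 kb, were not called. These neighbourhoods were chosen after the values were seen, and reads of overlapping genes cannot be told apart without the strand setting.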

How the data were processed

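RNA was sequenced in 12 HEYA8 libraries. The deposited table held variance-stabilised values on a log2 scale made by the authors, rounded to 3 significant digits. Per the submitters' processing notes the tool was DESeq2 and the build GRCh38 (hg38). The aligner, counter, strand setting and annotation are not given in the sources used here. Of 21211 entries 4 named no gene and gave read shares only (no feature, ambiguous, not aligned, not unique), so that 33.9% to 36.7% of reads lay on genes. Reads were recovered from the steps of low values: 100% of 45544 low values up to 12 reads matched a whole number within 0.0055 on the level scale, against 21.2% with another library's scale. Normalised counts carry the rounding of the deposited value.

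Values were fitted with limma 3.58.1 (R 4.3.3, variance trend) on dose and number 6 against 8 and 11, with 7 residual degrees of freedom. The fit kept genes whose level exceeded the floor by over 1 in 3 or more libraries. Tests were two-sided. On simulated data changes of 0.25, 0.5, 1 and 2 were checked for recovery in the same design. Lists, the comparison and its members were chosen with earlier results of these data known, and 5 lists and 2 fits (thinned reads, no-feature share) were added after seeing the data. Named genes were the 14 largest differences each way among called genes with a symbol that lay outside both other numbers at every dose. To these were added up to 4 called and 2 uncalled per list, the 5 widest gaps and 5 steepest called slopes each way, and the MYC network. A few others are named for a promoter match, a neighbour or reads on 1 side. Positions are from GENCODE 29 and promoters from RefSeq GRCh38.p14. Results of a few genes are not reported here.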

Additional observations from a re-analysis of the deposited data

Results flagged for a closer look

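In groups of 4 libraries, 3 of 68 had 1 library far from the rest, where chance gives about 1 in 20. The difference of SYT1 was −1.95 at 1 µM. The integrated stress response median was −0.50 at 5 µM, closer to 0 than at the other doses. The 10 most abundant genes took 8.39% of gene reads in the 0 µM library of number 6, the lowest share of its 4 libraries. The 0 µM library was also the lowest within number 8 (6.51%) and within number 11 (7.49%).

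Of 36 genes checked for a change of the difference over dose, 23 had a called slope (limma, interaction term). Over all genes tested 5.17% had a called falling slope and 3.15% a rising one. The 36 included the 5 steepest called slopes each way, which were picked for their slope, so the count is not a result about these genes. Slopes per dose step that widened a higher level in number 6 were 0.28 for CADM2, 0.70 for C15orf62 and 0.49 for SCN9A. That of CADM2 rests on a constant floor in 8 and 11. Those that narrowed one were −0.50 for ITGB8, −0.42 for GBP2, −0.62 for DKK1, −1.08 for KIF20A, −1.14 for H2BC3, −1.01 for PAEP, −1.01 for UBE2C and −0.99 for H3C12. A lower level narrowed by 0.75 for LAMP3, 0.40 for DYSF, 0.23 for TRIB3, 0.22 for DDIT3, 0.28 for LURAP1L, 0.60 for ESRP1, 0.37 for UPP1, 0.28 for WARS1, 0.44 for SPX, 1.02 for TNFSF15, 0.85 for GDF15 and 0.77 for RPLP0P2.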

How the results depend on the processing

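With no dose term, that is no replicate block pairing libraries by dose, 1701 genes were higher and 1695 lower, 1414 and 1456 of them outside both numbers at every dose, with 20 ribosome biogenesis genes, 2 ribosomal proteins, 10 matrix genes, 10 interferon genes, 23 histones and 2 immediate early genes. Against number 8 alone the values were 1579, 1539 and 1537 below at every dose, 23 ribosomal proteins, 9 interferon genes, 1 G2/M gene and 5 histones. Against number 11 alone they were 1932 and 2204, 8 interferon genes, 12 histones and 7 immediate early genes. With the no-feature share as a covariate they were 733 and 571, 665 and 540 outside at every dose, 13 ribosome biogenesis genes, 0 ribosomal proteins, 14 matrix, 4 mitochondrially encoded, 6 interferon, 0 G2/M, 1 histone and 3 immediate early genes, and SNORA73B turned to 0.0543; this share is tied to the number, so the fit has little left to test. Array weights gave 404 falling and 149 rising slopes, and voom 371 rising. Without the 0 µM libraries 22 histones were called, and without those at 1 µM 20, with 11 interferon genes. The stricter filter left 3 fibroblast markers. At an adjusted p under 0.01 there were 2195 higher, 2209 lower and 23 histones. With a difference of at least 1 there were 203 and 58, 9 stress response genes, 2 tRNA synthetases, 0 ribosome biogenesis, 0 ribosomal protein, 5 matrix, 2 fibroblast, 0 mitochondrially encoded, 1 interferon, 9 histone and 0 immediate early genes. The cause of these changes was not tested beyond fewer libraries or a higher threshold.

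Leaving out 1 library gave 2605 to 3362 higher and 2744 to 3599 lower genes, 2211 to 2752 above and 2296 to 2837 below at every dose, 114 to 943 falling and 34 to 570 rising slopes. Lists ranged over 31 to 34 (stress response), 15 to 15 (tRNA synthetases), 30 to 35 (ribosome biogenesis), 50 to 64 (ribosomal proteins), 21 to 24 (matrix), 4 to 5 (fibroblast), 9 to 11 (mitochondrially encoded), 13 to 19 (interferon), 32 to 35 (G2/M), 22 to 41 (histones) and 8 to 13 (immediate early). A random block for the number had a consensus correlation of −0.078 and 8366 calls. Depth was lowest in number 6 and limits its low genes most. A voom fit of the recovered reads gave 6726 calls, and the same fit on reads thinned to equal depth gave 6367.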

Other observations

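Nuclear long noncoding RNAs were called higher in 6 of 23 and lower in 8, against 19.3% and 19.9% of all genes. NEAT1, which builds nuclear paraspeckles, had levels of 15.2, 14.5, 15.2 and 15.7 in number 6 and 13.4 to 14.7 in the others, a difference of 1.16 ± 0.16 (limma). MALAT1 was at 0.40 ± 0.18 and was not called. Among ovarian carcinoma markers 4 of 9 were higher and none lower. MECOM, a transcription factor gene, had 10.7 to 11.5 in number 6 and 10.4 to 10.8 elsewhere (0.54 ± 0.08), and SOX17 was 9.08 against 7.73 and 7.98 at 0 µM and 7.89 against 7.97 and 8.04 at 10 µM.

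Of 16 circadian clock genes 3 were higher, near the 19.3% of all genes, and 6 lower, against 19.9%. BHLHE41, a repressor of the clock, was at 0.67 ± 0.05 and NFIL3 at −0.41 ± 0.10, while CLOCK (0.11 ± 0.06) was not called. Small noncoding RNAs had 3 of 15 lower (near the 19.9% of all genes) and none higher, with the vault RNA VTRNA1-1 at −0.32 ± 0.09. In the list of metallothioneins and zinc handling, 1 of 7 was higher, the zinc exporter SLC30A1 (0.33 ± 0.08), and 1 lower, MT1X (−0.30 ± 0.07). The 3 immune cell markers tested had a median difference of 0.08.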
